A study of Mus musculus with 62 samples.

Results

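The hearts described here came from mice carrying a melanoma that does not cause wasting (NCAC) and from mock-injected mice (Con), taken 2, 4 and 6 weeks after injection. They make up 29 of the 62 libraries of the study, 15 NCAC and 14 Con, and were chosen by arm and week alone, without use of any measured gene except for 1 library left out. That library, Con week 4 replicate 2, had 89.1% of its values in mitochondrially encoded transcripts and 612 TPM of the myosin gene Myh6. TPM is transcript abundance scaled to the same total in each library. The pooled comparison asks what a tumour without wasting does to the heart when the week is held constant.

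The study measured heart RNA in 3 arms, NCAC, Con and another arm injected with melanoma cells that do cause cachexia (CAC), a loss of muscle and fat in tumour bearers. All mice were female and 2 months old. Groups held 5 libraries each at weeks 2, 4 and 6 (Con at week 4 gave 4 after the exclusion), and each title carries its own heart number, and the protocol calls them biological replicates. No label says more about how the animals were kept, so p-values here speak to the variation among these hearts alone. The labels name the strain C57BL6/J, while the design text names NCI Ath/nude mice, which lack a thymus, and this holds for all groups. The melanoma line was not named in the labels, and neither batch, date nor time of day was given.

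Tumours act on distant organs through secreted cytokines, through systemic hormones such as glucocorticoids and through changed nutrient supply. The heart answers cytokines of the interleukin-6 family with acute phase genes through the factor STAT3, and answers mechanical load with natriuretic peptides. Its main fuel is fatty acids, whose use is set by the nuclear receptor PPAR alpha, and many of its genes follow the time of day through the circadian clock.

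Library measures overlapped between the arms. Mitochondrially encoded transcripts held 57.5 ± 1.87% of TPM in NCAC (SD, n = 15) and 58.5 ± 1.58% in Con (SD, n = 14), a mean within-week difference of -0.944 percentage points (permutation test within weeks, two-sided p = 0.158). Genes listed above 0 numbered 17638 ± 192 in NCAC and 17698 ± 159 in Con (SD), and TPM does not keep the read depth, which is unknown here. The 12 cardiomyocyte markers were high in all 29 libraries, with Myh6 at a median of 6173 TPM in NCAC and 6128 in Con. Of 8 atrial markers 4 reached the level needed for testing, and of 12 skeletal muscle markers 4 did. Myl7 and Myh4 were close to 0 in both arms (median Myl7 0.0744 and 0.178 TPM, median Myh4 0.00722 and 0 TPM). Other members were not, with median Nppa at 234 and 368 TPM and median Ckm at 1189 and 1172 TPM in NCAC and Con. Of 15 T and NK cell markers, 3 reached the level needed for testing.

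Some libraries stood apart or went against the strain label. Con week 2 replicate 1 lay farthest out on the first principal component, which held 15% of the variance. H2-Ea-ps, the mouse E alpha chain locus (chromosome 17, 34341959 to 34344645, minus strand, GRCm38), is not transcribed in mice of the C57BL/6 haplotype, as background. It was listed between 0.842 and 51.3 TPM in NCAC and between 0 and 28.9 TPM in Con, with 14 of 15 NCAC and 12 of 14 Con libraries above 1 TPM. Which strain name is right was not settled here.

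No gene passed the test between NCAC and Con. Testing covered the 11981 genes that reached 1 TPM in 5 or more libraries, and 0 had a limma adjusted p below 0.05 (0% called), and the smallest adjusted p was 0.934. At an unadjusted p below 0.05 there were 499 genes, 4.16% of those tested, 393 with a higher mean in NCAC (3.28%) and 106 with a lower one (0.885%). The median difference over all genes was 0.02 on the log2(TPM + 1) scale, the scale of every difference below, which understates low genes. After median-of-ratios rescaling, which aligns the libraries on their typical gene, that median was 0.00 and 609 of 11962 genes had an unadjusted p below 0.05, again with 0 called.

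A missed threshold does not show that the arms were alike, so the intervals are given. The median 95% interval reached 0.10 to either side of the estimate. For 11736 genes (98%) the whole interval lay within 0.5 on the log2 scale, a 1.41-fold difference either way, and for 11946 (99.7%) it lay within 1, a 2-fold difference. In 35 genes the interval reached beyond a 2-fold difference, among them pseudogenes, Cwc22 and its companions described below, the atrial peptide Nppa and the MHC class II gene H2-Eb1.

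**Figure D1:**
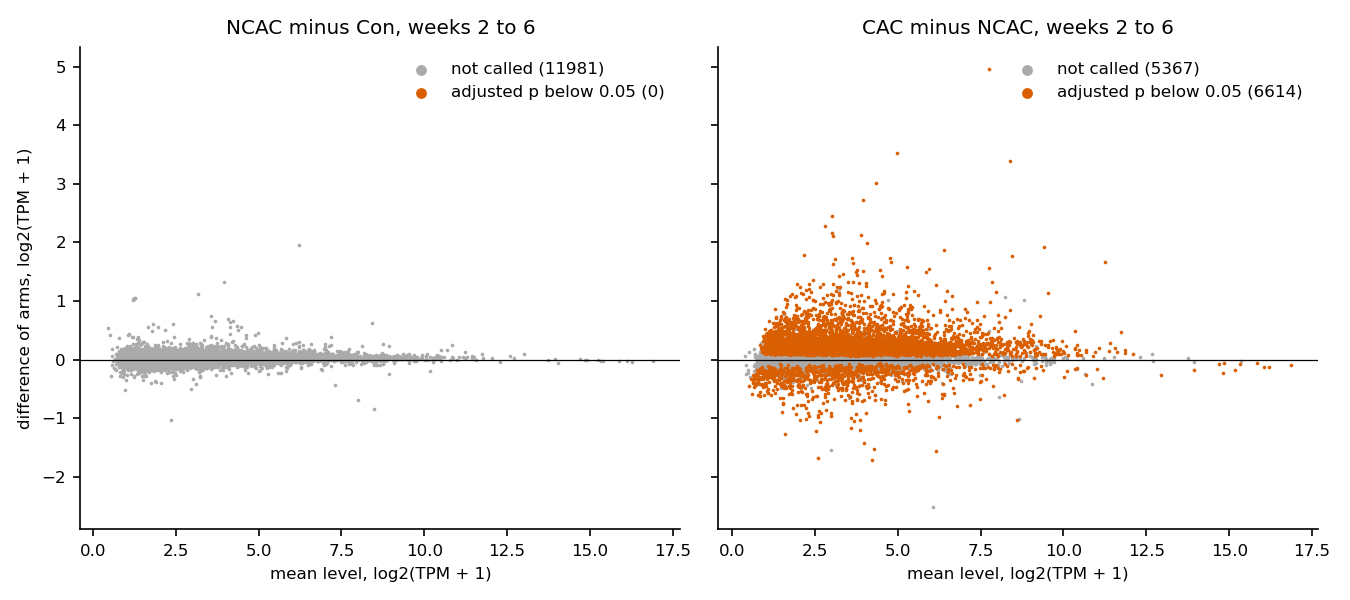
Difference between arms (y axis, log2(TPM + 1)) against the mean level of each of 11981 genes (x axis, log2(TPM + 1)), for NCAC minus Con on the left and CAC minus NCAC on the right, weeks 2 to 6, with called genes in orange. The left cloud holds 0 called genes and the right cloud 6614.

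The cachectic tumour shows the same test where many genes differ. CAC against NCAC, 15 libraries each over the same weeks and with the same test, called 6614 of 11981 genes (55.2%), 5774 higher (48.2%) and 840 lower (7.01%) in CAC. That split depends on the scaling, since rescaling gave 5040 called genes, 2466 higher and 2574 lower. Where many genes differ, the adjustment admits larger unadjusted p-values, so these counts do not measure how well few or small differences would be found. The 2 comparisons share the NCAC libraries, so their values are set side by side only.

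Genes that mark cachexia in the heart were read in NCAC from a panel picked in other libraries. The panel holds the 12 genes most increased and the 12 most decreased in CAC against Con at week 8, at 10 TPM or more, and was added after the data were seen. That week 8 comparison called 5681 genes (47.4%), 4648 higher (38.8%) and 1033 lower (8.62%) in CAC. For the 12 high genes the median NCAC minus Con difference was 0.06, with 9 of 12 above 0, beside 69.3% above 0 over all genes. None of the 12 had an unadjusted p below 0.05 in the pooled comparison, and all 12 were called higher in CAC than in NCAC at weeks 2 to 6.

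Serpina3n, an acute phase protease inhibitor, ranged from 0.93 to 3.53 TPM in NCAC with a median of 2.01, and from 1.24 to 5.29 in Con with a median of 2.30. In CAC the same gene ranged from 1.78 to 1767 TPM with a median of 52.3. The NCAC and Con ranges overlapped throughout, and NCAC minus Con was -0.18 (95% interval -0.48 to 0.12), beside 4.96 for CAC minus NCAC (limma adjusted p = 5.1e-07). Lcn2, which binds bacterial iron carriers, ranged from 0.593 to 2.42 TPM in NCAC (median 0.768), from 0.46 to 1.89 in Con (median 0.756) and from 1.05 to 292 in CAC (median 12.8). NCAC minus Con was 0.03 for Lcn2 (95% interval -0.18 to 0.25).

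Socs3, the feedback inhibitor of STAT3 signalling, ranged from 1.26 to 2.66 TPM in NCAC (median 1.96) and from 1.07 to 2.92 in Con (median 1.85), overlapping in full, with a difference of 0.00 (95% interval -0.17 to 0.17). In CAC its lowest value was 2.74 TPM and its highest 65.7. The chemokine gene Ccl8 differed by 0.03 between NCAC and Con (95% interval -0.31 to 0.37), the complement gene C4b by 0.14 (-0.08 to 0.36) and the matrix protease gene Mmp3 by -0.22 (-0.51 to 0.08). The metal-binding protein gene Mt2 had the widest gap of the 12, with a median of 31.4 TPM in NCAC (19.8 to 57.3) and 19.6 in Con (9.17 to 51.1). Its arms overlapped, and the difference of 0.42 had a 95% interval from -0.03 to 0.87.

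Of the 12 genes that are lowest in cachexia, 9 had a difference above 0 in NCAC, with a median of 0.10, and 10 were called lower in CAC than in NCAC. Mylk4, a kinase of the myosin light chain kinase family, ranged from 53.7 to 133 TPM in NCAC (median 100.15), from 33.6 to 128 in Con (median 102) and from 9.58 to 87.0 in CAC (median 33.8). Kcnip2, a subunit of the transient outward potassium channel, had medians of 98.1 TPM in NCAC and 91.0 in Con, overlapping ranges and a difference of 0.09 (95% interval -0.04 to 0.22). The apelin receptor gene Aplnr differed by -0.07 (-0.46 to 0.32) and the skeletal actin gene Acta1 by -0.06 (-0.71 to 0.59).

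Ucp3 and Casq1 were the panel members with an unadjusted p below 0.05 in the pooled comparison. Ucp3, a mitochondrial carrier that follows fatty acid supply, ranged from 8.66 to 49.0 TPM in NCAC (median 19.8) and from 6.93 to 31.1 in Con (median 14.5). Its difference was 0.56 (95% interval 0.12 to 1.01, unadjusted p = 0.0155, limma adjusted p = 0.934), with overlapping arms. Casq1, a calcium store protein of the sarcoplasmic reticulum, had medians of 27.2 TPM in NCAC and 17.3 in Con and a difference of 0.42 (95% interval 0.02 to 0.81, limma adjusted p = 0.934). In single weeks other members had an unadjusted p below 0.05, and none was called. At week 2 these were Mt2 (0.80), Mt1 (0.48), Mmp3 (-0.54), Mylk4 (0.58), Nrep (0.40) and Lrtm1 (0.36), where 10% of all genes had such a p. Acta1 (-1.20) had one at week 4 and Casq1 (0.81) at week 6.

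**Figure D2:**
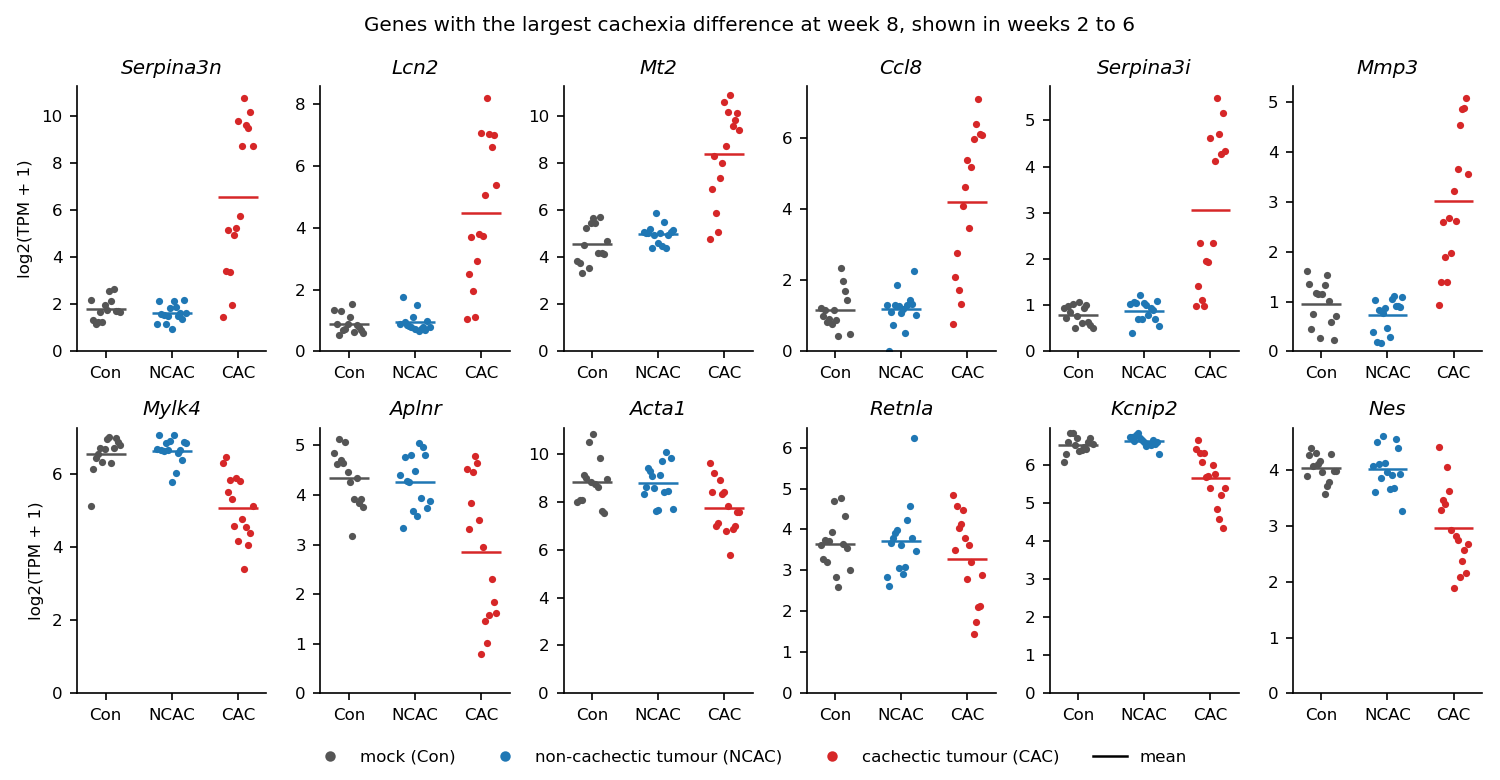
Values per library, log2(TPM + 1), at weeks 2 to 6 for the 6 genes highest (top row) and the 6 lowest (bottom row) in cachexia at week 8. Each point is a library and each bar the mean of an arm, and NCAC points overlap Con points in all 12 genes.

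All genes called in cachexia at week 8 were centred near the median of the whole table. The 4648 genes called higher in CAC had a median NCAC minus Con difference of 0.02, and the 1033 called lower one of 0.04, beside 0.02 for all genes. The middle 90% of the first set lay between -0.07 and 0.10, and that of the second between -0.10 and 0.15. An unadjusted p below 0.05 was reached by 144 genes of the first set (3.1%) and 81 of the second (7.84%), beside 4.16% of all genes. After rescaling the medians were -0.005 and 0.018, beside 0.002 for all genes.

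The genes with the smallest p differed by between -0.52 and 0.24. Rgma encodes a membrane-bound guidance molecule that is also a bone morphogenetic protein co-receptor (chromosome 7, 73375509 to 73419899, plus strand). It ranged from 12.6 to 19.9 TPM in NCAC (median 17.2) and from 11.6 to 17.9 in Con (median 14.5). The arms overlapped, 13 of 15 NCAC libraries were above the Con median of their week, and the difference was 0.24 ± 0.06 (SE, 95% interval 0.12 to 0.37, unadjusted p = 0.000486, limma adjusted p = 0.934).

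Gtf3a, a factor for transcription of the 5S ribosomal RNA genes, had medians of 8.22 TPM in NCAC and 7.26 in Con and a difference of 0.21. Map3k10, a kinase upstream of JNK, ranged from 7.49 to 9.35 TPM in NCAC and from 6.20 to 8.43 in Con, a difference of 0.15. Ube2s, a ubiquitin-conjugating enzyme of the anaphase-promoting complex, was above the Con median of its week in 14 of 15 NCAC libraries, with medians of 43.3 and 39.5 TPM and a difference of 0.10. These 3 genes overlapped between arms, as did the interleukin-3 receptor gene Il3ra (0.21) and the telomere complex gene Ten1 (0.13).

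On the lower side, Ttr, the carrier of thyroid hormone and retinol-binding protein, ranged from 0.0389 to 1.27 TPM in NCAC (median 0.427) and from 0.11 to 4.30 in Con (median 1.05). Its difference was -0.52 (95% interval -0.86 to -0.18), and most of both arms lay near or below the 1 TPM limit. Olfr78, an olfactory-type receptor also found in blood vessels, had medians of 1.69 and 2.16 TPM and a difference of -0.28. The chloride channel gene Ano1 differed by -0.15, the Ras-like gene Rasl11a by -0.25, the matrix-associated gene Mamdc2 by -0.20 and Ccdc149 by -0.23, all with overlapping arms. A small p and 1 sign in all weeks were the rule that chose these 12 genes. The counts of libraries above the Con median follow from that choice and are no separate support. None of the 12 changed sign or was called under the other settings tried, and the smallest limma adjusted p over those settings was 0.509. Those settings reuse mostly the same libraries, so the kept signs add no support either.

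**Figure D3:**
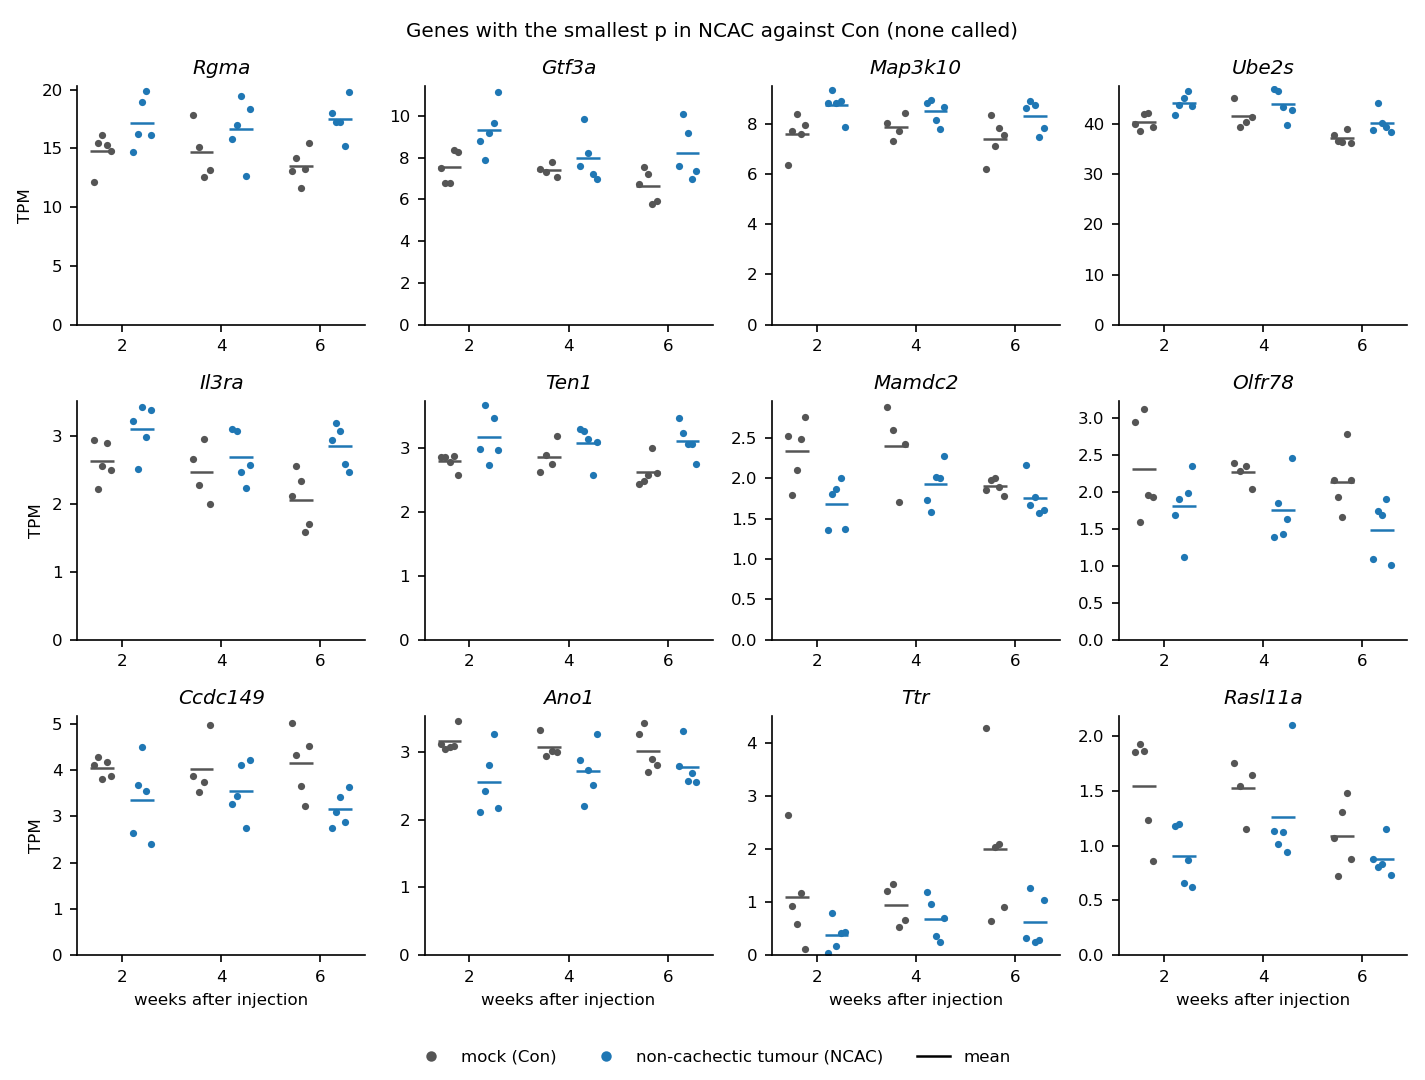
TPM per library by week (x axis, weeks after injection) for the 12 genes with the smallest p among those with 1 sign in all weeks, Con in grey and NCAC in blue, bars at group means. In each gene the points of the 2 arms overlap once the weeks are combined.

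Fuel genes lay slightly to the NCAC side. Of 34 tested genes of fatty acid oxidation and PPAR signalling, 32 had a difference above 0, beside 69.3% of all genes, with a median of 0.07. An unadjusted p below 0.05 was reached by 7, all higher, beside 3.28% of all genes. After rescaling 29 were above 0, the median was 0.04, and 3 had an unadjusted p below 0.05. Leaving out each library in turn gave 3 such genes (without NCAC week 6 replicate 1) to 13 (without NCAC week 2 replicate 5), with 12 without Con week 2 replicate 5. Acads, a short-chain acyl-CoA dehydrogenase, was 151 ± 9.20 TPM in NCAC (SD, n = 15) and 141 ± 9.17 in Con (SD, n = 14), a difference of 0.09. Pdk4, which holds back glucose oxidation, was 165 ± 90.1 and 123 ± 58.0 TPM, a difference of 0.39 with an interval from -0.08 to 0.86. Cd36, the fatty acid importer, differed by 0.00 (-0.08 to 0.07).

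Of 20 genes of calcium handling and electrical activity, 17 were above 0, beside 69.3% of all genes, and 4 had an unadjusted p below 0.05, beside 4.16%. All 4 were potassium channel genes, and 2 genes had such a p after rescaling. Kcnh2, a delayed rectifier channel, was 34.9 ± 3.48 TPM in NCAC and 30.8 ± 3.36 in Con (SD), a difference of 0.17 (95% interval 0.06 to 0.28). Kcnd2, a transient outward channel, was 10.5 ± 1.56 and 8.93 ± 1.69 TPM, a difference of 0.22 (0.04 to 0.39), and the inward rectifier gene Kcnj3 differed by 0.15 and Kcnq1 by 0.10. Without Con week 2 replicate 1 the median of the 20 genes was 0.03, from 0.07 with it, and 2 had an unadjusted p below 0.05. Leaving out each library in turn gave 2 to 5 such genes, and 2 also without Con week 2 replicate 2 or 4, Con week 6 replicate 1, or NCAC week 2 replicate 1 or 4, week 4 replicate 2 or week 6 replicate 1.

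Sarcomere, respiratory chain, proteasome and ribosomal protein lists were centred near the 0.02 of all genes in the pooled comparison. The 22 adult sarcomere genes had a median of 0.04, the 43 nuclear respiratory chain genes 0.03, the 20 proteasome genes 0.01 and the 42 cytoplasmic ribosomal protein genes 0.00. Of the 43 respiratory chain genes, 24, 26 and 42 were above 0 at weeks 2, 4 and 6. The shares over all genes were 64.2%, 56.6% and 61%. An unadjusted p below 0.05 was reached by 0, 0 and 6 of the 43, beside 10%, 1.28% and 3.24% of all genes. At week 8, 42 were above 0 and 16 had such a p, beside 34.8% and 12.5% of all genes. Of 20 atrophy ligase and autophagy genes, 17 were above 0, beside 69.3% of all genes, with a median of 0.06. An unadjusted p below 0.05 was reached by 3, all higher, beside 3.28% of all genes. After rescaling 14 were above 0 and the median was 0.03. Fbxo32 (atrogin-1) had a median of 40.9 TPM in NCAC and 39.98 in Con, a difference of 0.07 (-0.12 to 0.26), and Trim63 (MuRF1) had medians of 122 and 126 TPM, a difference of -0.02 (-0.16 to 0.12).

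Of 15 cardiac stress and fetal genes, 10 had a difference below 0, with a median of -0.09 and none at an unadjusted p below 0.05. Nppa, the atrial natriuretic peptide (chromosome 4, 148000722 to 148002079, plus strand), ranged from 20.4 to 971 TPM in NCAC (median 234) and from 81.0 to 922 in Con (median 368). Nppb, the ventricular peptide, ranged from 55.1 to 242 TPM in NCAC (median 143) and from 69.3 to 364 in Con (median 185). The ranges overlapped widely, and the differences of -0.84 (-1.81 to 0.14) and -0.44 (-0.91 to 0.03) had intervals that included 0. The beta myosin heavy chain gene Myh7 differed by 0.03 (-0.06 to 0.12).

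Interferon and antigen presentation genes leaned to the NCAC side in the pooled comparison without reaching the test. All 36 tested interferon response genes had a difference above 0, beside 69.3% of all genes. Their median was 0.17 beside 0.02 for all genes, and 0 of them had an unadjusted p below 0.05. Interferon genes are known to be induced together, so 36 equal signs are not 36 separate observations. Igtp, an interferon-induced GTPase, ranged from 4.15 to 57.0 TPM in NCAC and from 3.07 to 33.9 in Con, a difference of 0.51 (-0.13 to 1.16).

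The size of that lean depended on single libraries. Without Con week 4 replicate 5 the interferon median was 0.09, and without NCAC week 2 replicate 2 it was 0.24 with 17 of 36 genes at an unadjusted p below 0.05. Of 15 MHC class I genes 14 were above 0 (median 0.17), and of 7 MHC class II genes 7 were (median 0.27), beside 69.3% of all genes. The class II genes did not follow the interferon list by week, with 7, 0 and 7 above 0 at weeks 2, 4 and 6. Over all genes the shares above 0 were 64.2%, 56.6% and 61%. The class II medians were 0.27, -0.14 and 0.61, and none of the 7 had an unadjusted p below 0.05 in a single week. Cd74 was 77.9 ± 39.0 TPM in NCAC and 60.8 ± 30.3 in Con. In the week 8 libraries, none of which entered this fit, 0 of the 36 interferon genes were above 0 and the median NCAC minus Con difference was -0.44. There 28 of the 36 had an unadjusted p below 0.05, beside 12.5% of all genes, and 0 were called. Of the 15 MHC class I genes 0 were above 0 at week 8 and 13 had such a p. Igtp was 13.2 ± 5.70 TPM in NCAC and 61.9 ± 69.7 in Con at that week (SD, n = 5 each).

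The interleukin-6 pathway was centred near 0 in the pooled comparison. Of 17 interleukin-6 and STAT3 genes 11 were above 0, with a median of 0.03, and 1 had an unadjusted p below 0.05 (Timp1, lower, described below), while 14 of the 17 were called higher in CAC than in NCAC, beside 48.2% of all genes as deposited. The median CAC minus NCAC difference of the 17 was 1.08, beside 0.11 for all genes. Between NCAC and Con, 9, 8 and 11 of the 17 were above 0 at weeks 2, 4 and 6. An unadjusted p below 0.05 was reached by 5, 0 and 0 of them, beside 10%, 1.28% and 3.24% of all genes. At week 8, 5 of the 17 were above 0 and 4 had such a p, beside 34.8% and 12.5% of all genes. All 10 complement genes were called higher in CAC, with a median of 0.90, and their NCAC minus Con median was 0.05 with 6 of 10 above 0.

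Markers of other cell types were read beside these lists. The 17 listed macrophage and monocyte markers summed to 229 to 391 TPM in NCAC and 239 to 388 in Con, with medians of 303 and 275. Of the 16 tested, 15 had a difference above 0, beside 69.3% of all genes, and 13 did after rescaling. An unadjusted p below 0.05 was reached by 0 of the 16. By week, 15, 5 and 14 were above 0 at weeks 2, 4 and 6, and 1 at week 8. The 13 endothelial markers summed to 1650 to 2097 TPM in NCAC and 1677 to 2133 in Con, with 3 of 13 differences above 0 as deposited and 0 of 13 after rescaling. Single weeks gave 1, 5 and 8 of the 13 above 0 at weeks 2, 4 and 6. The shares over all genes were 64.2%, 56.6% and 61%. At week 8, 1 of the 13 was above 0 and 8 had an unadjusted p below 0.05, beside 34.8% and 12.5% of all genes. In whole hearts fewer cells of a type and less RNA per cell cannot be told apart, and the part of these markers in the other lists was not tested.

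The arms did not differ by week in any called gene. A moderated F test of the NCAC minus Con difference across the 3 weeks called 0 of 11981 genes with limma (0%), with 459 (3.83%) at an unadjusted p below 0.05 and a smallest adjusted p of 1.00. Week 2 alone called 0 genes with 1204 (10%) at an unadjusted p below 0.05, week 4 called 0 with 153 (1.28%), and week 6 called 0 with 388 (3.24%). The smallest limma adjusted p was 0.295 at week 2 (Paqr7), 1.00 at week 4 (Fmo5) and 0.262 at week 6 (Gm8066).

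Paqr7, a membrane progestin receptor, had the smallest p for a difference between weeks (unadjusted p = 0.000148). At week 2 it was 7.96, 7.67, 8.24, 8.15 and 7.85 TPM in NCAC and 4.78, 4.69, 4.79, 5.19 and 6.23 in Con. The arms did not overlap at that week, while at weeks 4 and 6 they did, with differences of 0.55, -0.22 and 0.06 at weeks 2, 4 and 6. Gm8066, a long non-coding RNA, was 1.37, 1.64, 1.53, 0.978 and 1.26 TPM in NCAC and 0.797, 0.630, 0.359, 0.268 and 0.699 in Con at week 6. Those values did not overlap either, and most lay near 1 TPM. Both genes were picked for a small p between weeks, which favours such gaps. The share of all genes with arms apart in a week was not counted.

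The other genes with a small p between weeks changed sign from week to week. Peli2, a ubiquitin ligase of Toll-like receptor signalling, differed by 0.30 at week 2, -0.28 at week 4 and 0.09 at week 6. The kinesin gene Kifc3 differed by -0.29, 0.21 and 0.20 at those weeks, and the flavin monooxygenase gene Fmo5 by 0.23, -0.47 and -0.04. The non-coding RNA 4732491K20Rik differed by -0.30, 0.22 and -0.04.

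**Figure D4:**
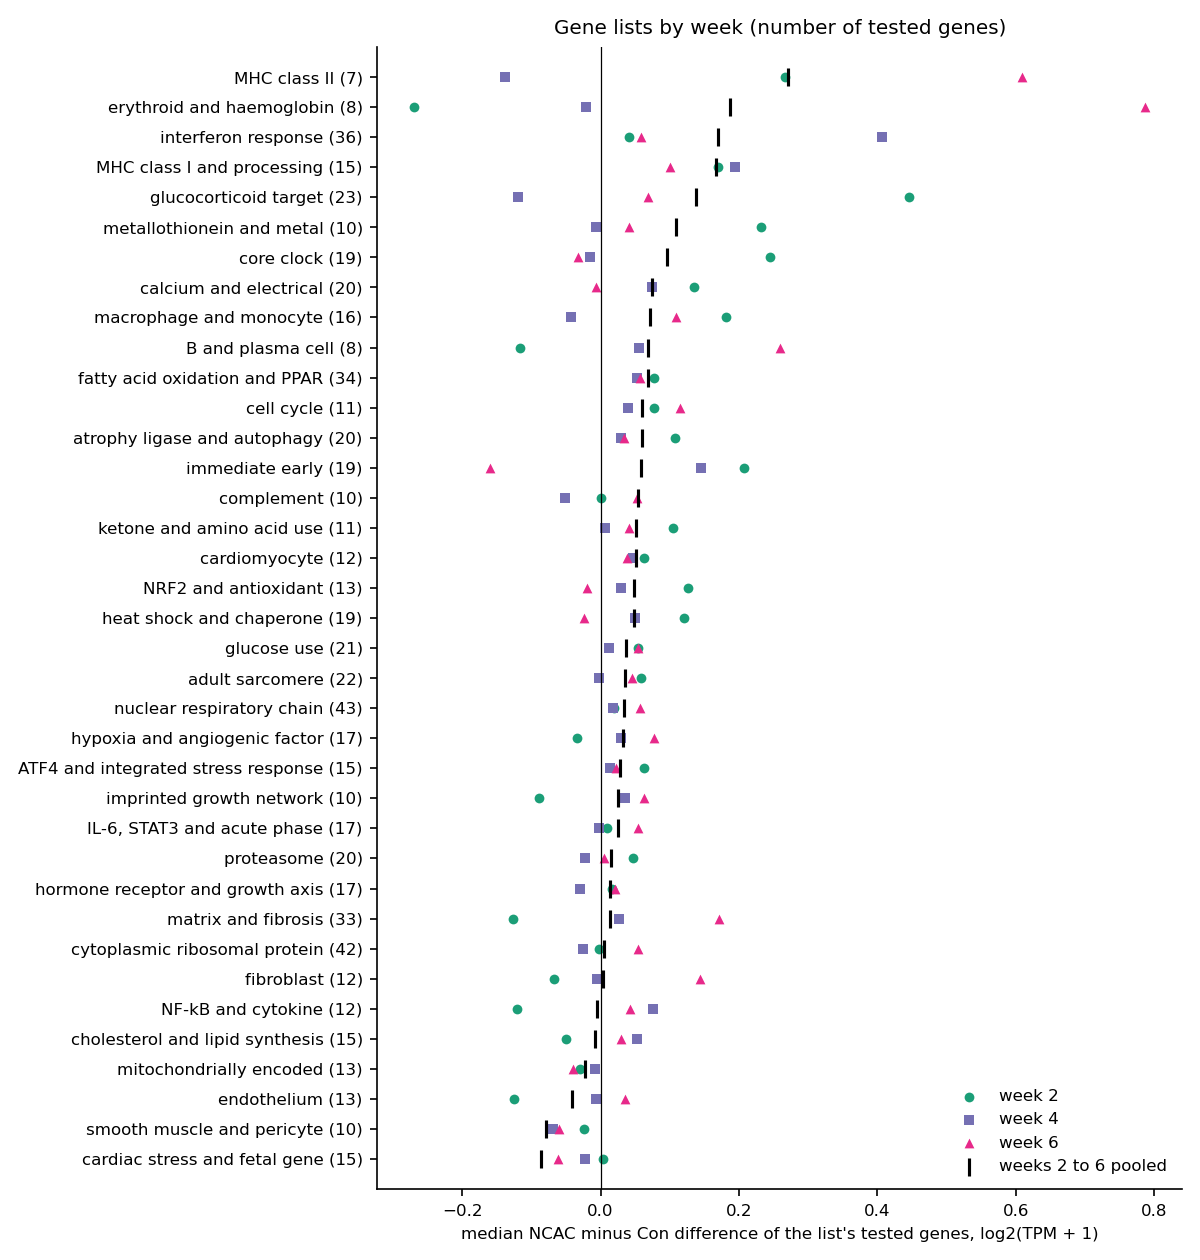
Median NCAC minus Con difference (x axis, log2(TPM + 1)) of each gene list with at least 7 tested genes, by week and pooled, with the number of tested genes in brackets. Interferon genes stand out at week 4 (0.41) and glucocorticoid targets at week 2 (0.45). At week 6 haemoglobin genes (0.79) and MHC class II genes (0.61) do. The respiratory chain list lies between 0.02 and 0.06 in each week, with 24, 26 and 42 of its 43 genes above 0 at weeks 2, 4 and 6.

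Clock and glucocorticoid genes stood out at week 2. Of 23 glucocorticoid targets 22 had a difference above 0 at week 2, with a median of 0.45 and 12 at an unadjusted p below 0.05, beside 10% of all genes. That count was 8 after rescaling and ran from 4 (without NCAC replicate 2) to 16 (without Con replicate 5) leaving out each library of the week, with 5 without Con replicate 2 or 3 and 7 without NCAC replicate 1. The medians were -0.12 at week 4 and 0.07 at week 6. Of 19 core clock genes 13 had an unadjusted p below 0.05 at week 2, 1 at week 4 and 0 at week 6. The week 2 count ran from 7 (without Con replicate 1) to 14, with 8 without NCAC replicate 2.

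Arntl, the BMAL1 activator of the clock, was 6.29, 3.13, 3.34, 1.68 and 0.448 TPM in the Con hearts of week 2 and 0.751, 0.638, 0.592, 0.373 and 0.256 in the NCAC hearts. Its repressor gene Per2 was 1.97, 5.32, 5.28, 8.39 and 14.7 TPM in the same Con hearts, replicate by replicate, and 16.01, 16.21, 11.53, 14.02 and 15.01 in NCAC. Con hearts with the most Arntl had the least Per2, and Con replicate 5 lay within the NCAC range of both genes. Zbtb16, a strong glucocorticoid target, was 3.29, 6.18, 10.7, 26.1 and 40.7 TPM in those Con hearts and 55.7, 56.4, 23.3, 23.6 and 42.7 in NCAC.

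High Arntl with low Zbtb16 was seen in both arms at week 4. At week 4 Arntl was 6.64 TPM in Con replicate 1 and 4.40 and 9.84 in NCAC replicates 3 and 5, while the other libraries of that week lay between 0.438 and 0.728. Zbtb16 in those 3 hearts was 5.30, 5.01 and 6.64 TPM, and 39.5 to 57.2 in the rest. The labels give no time of day, so hour of collection and arm cannot be told apart at week 2.

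With the log2 difference of Arntl and Per2 as a covariate, an alternative chosen after these values were seen, week 2 had 509 genes at an unadjusted p below 0.05 in place of 1204, and 0 called. The glucocorticoid list then had a week 2 median of 0.13 with 0 genes at an unadjusted p below 0.05, and the clock list had 1. The clock drop is built in because both genes of the covariate belong to that list. At week 2 the covariate itself differed between the arms, so it can take up part of the arm difference in any gene. The smaller counts therefore do not separate hour of collection from arm. The pooled count was 469, from 499. Without Con week 2 replicate 1 the week 2 count was 736, and without Con week 2 replicate 5 it was 1710.

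At week 4 the interferon list had a median of 0.41 with 36 of 36 genes above 0 and 4 at an unadjusted p below 0.05, beside 1.28% of all genes, and medians of 0.04 at week 2 and 0.06 at week 6. The summed level of its listed genes was 342 to 531 TPM in NCAC and 176 to 368 in Con, so the arms overlapped, and the lowest Con sum stood apart. Isg15, a ubiquitin-like modifier induced by interferon, was 9.98, 6.15, 5.94, 6.15 and 8.58 TPM in NCAC and 5.93, 3.90, 5.65 and 1.13 in Con. Without Con week 4 replicate 5, which held the 1.13, the week 4 median was 0.14 with 0 genes at an unadjusted p below 0.05. There were also 0 such genes without NCAC replicate 1 and 1 without NCAC replicate 5, and 12 without Con replicate 4.

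At week 6 the erythroid and haemoglobin list had a median of 0.79, with 6 of 8 genes at an unadjusted p below 0.05, beside 3.24% of all genes. Hba-a1, an alpha globin gene, was 2728, 8260, 1902, 1202 and 899.9 TPM in NCAC and 480, 498, 387, 1926 and 1420 in Con. NCAC replicate 2 was the highest and the arms overlapped. Without that library the median was 0.40 with 2 genes at an unadjusted p below 0.05. Haemoglobin transcripts held 1.86% of TPM in it and 0.154 to 0.629% in the other weeks 2 to 6 libraries of both arms. The part of blood in the tissue was not tested.

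The matrix and fibrosis list had a median of -0.13 at week 2 (6 of 33 at an unadjusted p below 0.05, beside 10% of all genes), 0.03 at week 4 and 0.17 at week 6 (1 of 33, beside 3.24%). Leaving out each library of the week gave 2 to 10 such genes at week 2, the lowest without NCAC replicate 5 and the highest without NCAC replicate 3. At week 6 it gave 0 to 13, with 13 and a median of 0.30 without NCAC replicate 5. With the clock covariate, which can take up part of the arm difference at week 2, the median of that week was -0.05 with 0 of 33. Timp1, an inhibitor of matrix proteases, was 1.54 ± 0.524 TPM in NCAC and 2.10 ± 0.811 in Con over the 3 weeks (SD), a difference of -0.27 (-0.51 to -0.04).

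A few genes were far higher in some hearts than in others, and several of these had wide intervals. They were singled out after their values were seen. Cwc22, a splicing factor (chromosome 2, 77881159 to 77946375, minus strand), was 37.2 to 109 TPM in 5 of 15 NCAC hearts and 2.90 to 4.05 TPM in the other 24 libraries, with no value between. The 5 hearts came from all 3 weeks. Gm13691 and 6 annotated neighbours of it (chromosome 2, 83955693 to 83993045) were high in the same 5 libraries, Gm13691 at 4.01 to 13.1 TPM there and at most 0.0176 in the rest. Outside these libraries Cwc22 was above 10 TPM in 1 of 5 Con and 3 of 5 NCAC hearts at week 8 and in 4 of 15 CAC hearts at weeks 2 to 6 and 1 of 7 at week 8. Its NCAC minus Con difference was 1.33 (0.32 to 2.33, limma adjusted p = 0.934).

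RP24-402O2.2, an entry without a match in the annotation used here, was below 1 TPM in 9 of 15 NCAC and 1 of 14 Con hearts and at least 2.98 TPM in all others of these arms. Its difference was -1.04 (-1.74 to -0.33, limma adjusted p = 0.934). The ribosomal protein gene Rps26 and its processed copy Rps26-ps1 divided their signal between hearts, which is uncertain for near-identical copies. Rps26-ps1 was at most 0.423 TPM in 8 NCAC and 11 Con hearts and 168 to 392 TPM in the others. NCAC week 2 replicate 5 had 392 TPM of the copy and 0.098 TPM of Rps26. The sum of both was 281 to 392 TPM in NCAC and 277 to 377 in Con.

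**Figure D5:**
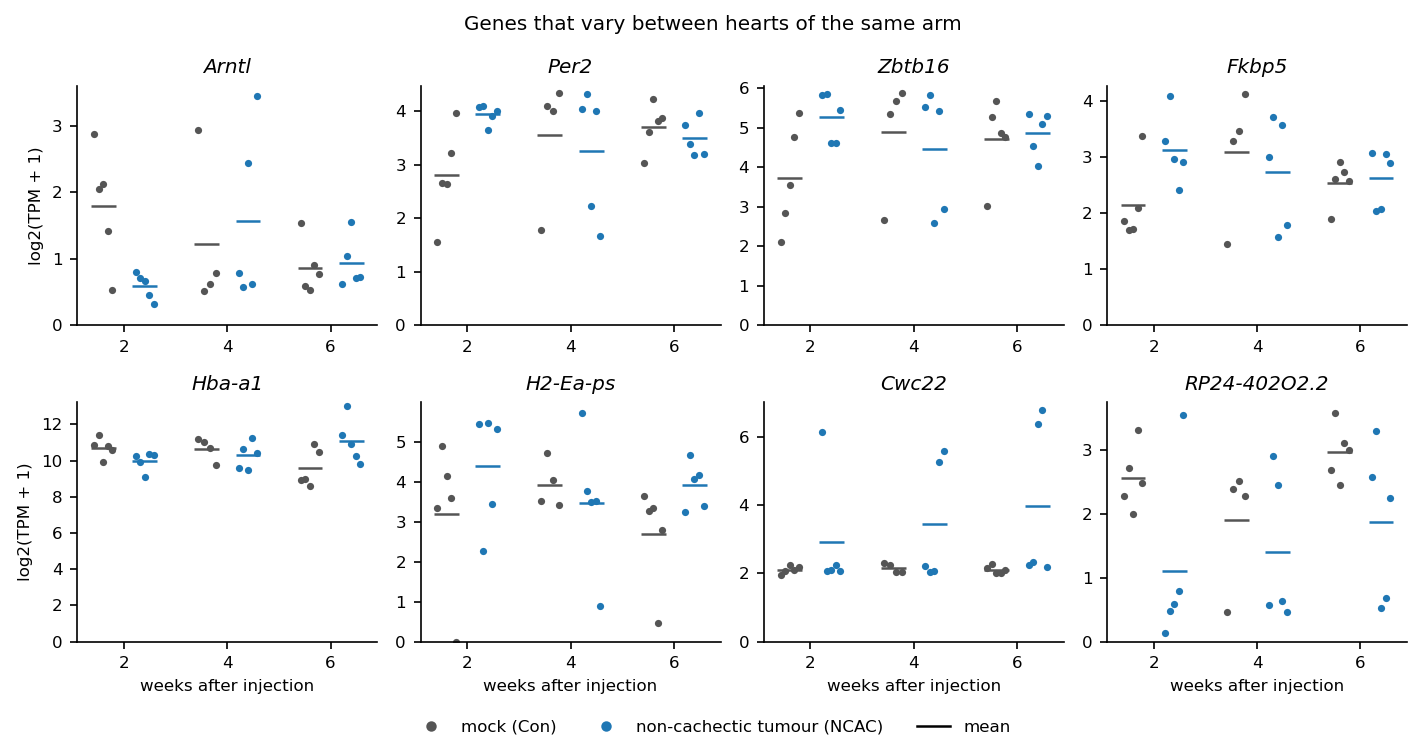
Values per library, log2(TPM + 1), by week for 8 genes that vary between hearts of 1 arm, Con in grey and NCAC in blue, bars at group means. Arntl and Per2 split the Con hearts of week 2, Hba-a1 is highest in 1 NCAC heart of week 6, and Cwc22 is high in 5 NCAC hearts and no Con heart.

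Week 8 lies outside the pooled comparison and offers other mice of the same arms. There 7 of 11981 genes were called between 5 NCAC and 5 Con libraries (0.0584%), 6 higher (0.0501%) and 1 lower (0.00835%) in NCAC, with 1496 (12.5%) at an unadjusted p below 0.05. Slc40a1, the iron exporter ferroportin, was 1.77 ± 0.434 TPM in NCAC and 4.37 ± 1.18 in Con at week 8 (SD, n = 5 each, limma adjusted p = 0.0417), beside a weeks 2 to 6 difference of 0.15 (-0.21 to 0.52). mt-Nd6, a subunit of respiratory complex I, was 778 ± 102 and 462 ± 51.9 TPM at week 8 (limma adjusted p = 0.0201), beside -0.06 (-0.26 to 0.14). The week 8 count ran from 0 to 265 over the settings tried. Of the 12 genes named for the pooled comparison, 0 were called at week 8.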

How the data were processed

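Heart RNA of 62 libraries was sequenced as stranded mRNA, per the labels' protocols, and 29 libraries were compared. The authors deposited TPM on mm10, per the submitters' processing notes. The aligner, counter and gene set are not given in the sources used here. Groups came from the labels.

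Values were taken as log2(TPM + 1). Of 47643 symbols, 11981 reached 1 TPM in 5 or more of the 29 libraries and were fitted with limma 3.58.1 (trend, R 4.3.3), with week as a block, or as group means for single weeks and the test between weeks. P-values were adjusted by Benjamini-Hochberg, threshold 0.05. Shares were compared by 100000 permutations within weeks. Coordinates are GENCODE M21 (GRCm38), matched by symbol for 11561 tested genes. The scripts were tested on simulated data. TPM carries no read depth, so no count model was run.

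Named genes were the called ones or, where none was, the 6 with the smallest p in each direction among annotated genes with 1 TPM or more and 1 sign in all weeks, and the 6 with the smallest p between weeks. The members and the 49 gene lists were chosen with earlier results of these data known. The cachexia panel, the clock covariate and the genes far higher in some hearts than in others were chosen after the data were seen. Alternatives were other pseudocounts, filters, scalings, weights, a replicate block, a fit over all libraries, and leaving out libraries or weeks.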

Additional observations from a re-analysis of the deposited data

Results flagged for a closer look

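Each group of 4 or 5 hearts was searched for a highest or lowest library far from the others, for the named genes, the cachexia panel and the mitochondrial and haemoglobin shares. Of 264 such groups, 17 (6.44%) had one, where chance alone gives about 1 in 20.

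Among Con hearts, week 2 replicate 5 was low for Ten1 (2.58 TPM, the others 2.79 to 2.87) and high for Ano1 (3.46 TPM, the others 3.04 to 3.12). Con week 4 replicate 1 was high for 4732491K20Rik (2.90 TPM, the others 1.92 to 2.09). Con week 6 replicate 2 stood apart in 3 genes, with Mt2 at 51.1 TPM (the others 16.8 to 24.9), Socs3 at 2.64 (1.53 to 1.78) and Aplnr at 19.2 (12.5 to 14.1).

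Among NCAC hearts, week 2 replicate 2 was high for Lcn2 (2.42 TPM, the others 0.768 to 0.943) and week 2 replicate 5 low for Mt2 (19.8 TPM, the others 31.4 to 35.9). At week 4, replicate 4 was low for Ten1 (2.58 TPM, the others 3.09 to 3.30), replicate 5 high for Rasl11a (2.11 TPM, the others 0.941 to 1.13) and replicate 2 high for Mt2 (57.3 TPM, the others 21.3 to 31.3). At week 6, replicate 4 stood apart in 3 genes of macrophages and the acute phase, with Serpina3n at 3.53 TPM (the others 1.59 to 2.08), Ccl8 at 3.80 (1.03 to 1.73) and Retnla at 74.4 (10.1 to 22.8). Replicate 1 of that week was high for Mt1 (292 TPM, the others 179 to 202). Replicate 2 was high for Casq1 (56.7 TPM, the others 17.3 to 27.2) and for the haemoglobin share (1.86%, the others 0.201 to 0.629%). The causes were not tested.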

How the results depend on the processing

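The pooled comparison and the test between weeks called 0 genes under every alternative run, leave-one-out fits included, and the smallest adjusted p of the pooled comparison was 0.509, with array quality weights. Those weights called 1 gene at week 2 (Paqr7, adjusted p = 0.0256) and 1 at week 6 (Cxx1a, adjusted p = 0.0405). The pooled count at an unadjusted p below 0.05 was 739 with the weights, 207 with Con week 4 replicate 2 kept, 894 without a filter, and 368 to 662 leaving out each library. The replicate block (same-numbered libraries paired within a week) left the pooled comparison at 0 called genes with 421 at an unadjusted p below 0.05. Same-numbered pairs correlated between -0.0776 and 0.187 over genes, 3 of 14 above 0.1, so they share only a number. At week 8 the count of 7 was 0 without a filter, 90 after median-of-ratios rescaling, 26 after rescaling without mitochondrially encoded and haemoglobin genes, 265 with array quality weights and 4 with the replicate block, and ran from 2 to 77 leaving out each library (77 without Con week 8 replicate 2). The causes were not tested. CAC against NCAC called 6173 to 6843 genes leaving out each library. Of 1723 values of 42 single results, none of which passed the test, 69 in 12 results had the other sign. By more than 1 SD, 3 values moved, Kcnip2 (0.32), Lrtm1 (0.34) and Efnb3 (0.35), with Con week 4 replicate 2 kept. The number of libraries per group limits what can be seen, and TPM gives no depth.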
